A study of Mus musculus with 16 samples.

Results

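The small leucine-rich proteoglycans are secreted matrix proteins whose core is a run of leucine-rich repeats. Of this family, 10 genes were followed: Dcn (decorin), Bgn (biglycan), Fmod (fibromodulin), Lum (lumican), Prelp (prolargin), Ogn (osteoglycin), Omd (osteomodulin), Aspn (asporin), Epyc (epiphycan) and Chad (chondroadherin). They were taken by gene symbol, with no cut on their values, though earlier results of these data were known. They are 10 of the 49315 genes in the deposited table. All 10 were found, and all 10 were among the 24188 genes that were tested because they reached 1 TPM in at least 3 libraries. TPM divides reads by gene length, so that levels can be compared between genes, and scales each library to the same total. Because that total is fixed, a large change in abundant genes shifts the TPM of the others between mice.

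RNA was sequenced in bulk from tail intervertebral discs of 16 mice, with 4 coccygeal discs of a mouse pooled into 1 library after removal of the cartilaginous endplate. The mice were Adam8EQ mutants or wild type, and the discs were labelled injured or intact. Intact discs came from 3 wild-type and 4 mutant mice, and injured discs from 4 wild-type and 5 mutant mice. Adam8 encodes a membrane-bound metalloprotease, and the labels say nothing more of the EQ allele. In the wild-type samples the genotype label is incomplete, so genotype was read from the titles, and the series title gives DBA, an inbred strain, as the comparison strain. Age, sex, the manner of injury and the time from injury to collection are not given in the sources used here. Each library was numbered within its group by the title, and the numbers name different mice.

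The discs hold a gel-like nucleus pulposus inside a lamellar annulus fibrosus, and both contain collagen fibrils to which these proteoglycans bind. Decorin, biglycan and asporin form class I of the family. Decorin and biglycan carry chondroitin or dermatan sulfate chains, and asporin usually carries none. Fibromodulin, lumican, prolargin and osteomodulin form class II, whose members can carry keratan sulfate. Osteoglycin and epiphycan belong to class III, and chondroadherin, which binds collagen and integrins and is abundant in cartilage, belongs to class IV. Decorin, fibromodulin and lumican are known to regulate the width and spacing of collagen fibrils, several members bind TGF-beta, and soluble biglycan is a ligand of Toll-like receptors.

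Most of the members lie next to relatives in the genome (GRCm38, GENCODE release M21). On chromosome 10 the order is Dcn (chr10:97479609-97518143), Lum (chr10:97565128-97572703), the cornea proteoglycan gene Kera, and Epyc (chr10:97644068-97682454), a block of 202.8 kb with 0 other coding genes. On chromosome 13 the order is Ecm2, Aspn (chr13:49544443-49567565), Omd (chr13:49582462-49592822) and Ogn (chr13:49608046-49624501), a block of 119.7 kb that lies inside the centromere protein gene Cenpp on the opposite strand. On chromosome 1, Prelp (chr1:133910304-133921414) and Fmod (chr1:134037254-134048277) follow Optc in a block of 151.1 kb with 0 other coding genes. Bgn (chrX:73483602-73495933) and Chad (chr11:94565047-94569127) lie apart from the other family genes followed. Chad lies inside the coding gene Acsf2 on the opposite strand, which held 36.9 to 132.1 TPM and shares 0 exon bases with it. All 10 genes are protein coding. Since strand use in counting is not given in the sources used here, reads in shared exons cannot be assigned with certainty. Prelp shares 350 exon bases (9.68% of its exons) with the antisense gene Gm15851, which held 8.0 to 49.5 TPM. Epyc shares 1041 exon bases (40.65%) with Gm10754, which was at 0 TPM in every library. Aspn shares 7 exon bases (0.30%) with Cenpp.

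Promoter sequences are shown for Chad, the member with the highest level in intact discs, and for the chromosome 13 neighbours Aspn, Omd and Ogn, which were all lower in injured than in intact mutant discs. Each runs from 250 bases before to 50 bases after the start of the gene in RefSeq (GRCm38.p6), 5′ to 3′ on the plus strand, on which all 4 genes lie. The windows are chr11:94564797-94565096 for Chad, chr13:49544193-49544492 for Aspn, chr13:49582212-49582511 for Omd and chr13:49607765-49608064 for Ogn. Capitals mark matches on either strand to 5 searched words. The word searched was TATAAA for the TATA box, TGANTCA for AP-1 proteins, TTCNNNGAA for STAT proteins, ACAAT for SOX proteins and TGTGGT for RUNX proteins.
Chad: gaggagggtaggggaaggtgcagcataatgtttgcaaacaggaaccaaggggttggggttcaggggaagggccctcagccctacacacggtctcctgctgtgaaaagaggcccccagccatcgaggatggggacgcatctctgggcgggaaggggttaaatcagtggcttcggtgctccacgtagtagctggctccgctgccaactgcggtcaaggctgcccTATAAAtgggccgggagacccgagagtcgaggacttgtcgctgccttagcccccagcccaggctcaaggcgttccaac
Aspn: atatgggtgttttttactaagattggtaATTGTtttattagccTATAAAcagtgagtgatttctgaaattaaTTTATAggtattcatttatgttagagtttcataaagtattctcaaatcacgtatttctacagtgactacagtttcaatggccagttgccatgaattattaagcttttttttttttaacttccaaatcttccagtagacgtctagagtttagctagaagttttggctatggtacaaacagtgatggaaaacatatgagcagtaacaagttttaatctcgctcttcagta
Omd: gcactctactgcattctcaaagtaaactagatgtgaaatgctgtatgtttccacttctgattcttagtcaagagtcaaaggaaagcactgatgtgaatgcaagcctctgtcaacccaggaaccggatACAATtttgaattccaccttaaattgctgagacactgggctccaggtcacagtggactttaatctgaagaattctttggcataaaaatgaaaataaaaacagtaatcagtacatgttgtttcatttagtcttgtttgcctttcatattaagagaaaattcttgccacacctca
Ogn: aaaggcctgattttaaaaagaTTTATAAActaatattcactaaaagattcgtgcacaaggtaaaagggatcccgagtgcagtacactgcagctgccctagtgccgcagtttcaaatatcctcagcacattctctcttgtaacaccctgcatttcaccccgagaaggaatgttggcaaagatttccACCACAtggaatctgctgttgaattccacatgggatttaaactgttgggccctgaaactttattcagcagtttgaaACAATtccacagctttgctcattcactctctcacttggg
In Chad, the TATA box word lay on the gene's strand at bases -28 to -23 from the start. Aspn held it at -207 to -202 and, on the other strand, at -178 to -173. In Ogn a forward and a reverse match overlapped between -229 and -222. Omd held 0 matches to it. The SOX word was present in Aspn, Omd and Ogn, the RUNX word in Ogn, and neither the AP-1 nor the STAT word in any of the 4. The TATA box word was found in 13.62% of 32817 promoter windows of the same length, the SOX word in 31.04%, the RUNX word in 16.76%, the STAT word in 8.29% and the AP-1 word in 7.81%. These are matches of letters, and no binding was measured.

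Each TPM value was converted to the reads it implies, and the libraries held 10196357 to 24820866 such reads. The summed level of 5 macrophage genes was 150 to 205 TPM in intact discs of either genotype and 750 to 7591 TPM in injured mutant discs. In injured wild-type discs it was 241 and 368 TPM (mice 1 and 2) and 3420 and 2283 TPM (mice 3 and 4), so mice 1 and 2 stood near the intact libraries. Disc markers were present throughout: Acan, the core protein of aggrecan, held 2426 to 7024 TPM and Col2a1, the chain of cartilage collagen, 658 to 9312 TPM. Between the genotypes, Adam8 itself differed in intact discs by -0.03 ± 0.92 on the log2 scale, with a limma adjusted p of 1, and its level does not show which allele was transcribed. The mutant libraries carry 2 kinds of name, A8 (mice 1 and 2 of each treatment) and M (the others), and all wild-type libraries carry D, so naming and genotype cannot be told apart.

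Intact discs of both genotypes expressed the members in the same order by mean TPM, except that Dcn and Prelp, whose ranges overlapped in both, changed places. Chad came first. It held 13184, 15935 and 17188 TPM in wild-type mice 1 to 3 and 17911, 17291, 17910.5 and 18411 TPM in mutant mice 1 to 4. By mean TPM it was the fourth highest of all tested genes in wild-type and the third highest in mutant intact discs. Fmod followed, with 2638 ± 361 TPM over the 3 wild-type and 2577 ± 95.4 TPM over the 4 mutant mice (mean ± SD). Prelp, Dcn and Bgn lay between 842 and 2763 TPM in all 7 intact libraries. Ogn, Aspn and Omd lay between 103 and 434 TPM, and the ranges of neighbours among these 3 overlapped. Lum and Epyc were close to the limit of detection: Lum held 0.299 to 3.11 TPM, on 2 to 24 implied reads, and Epyc 0.158 to 0.614 TPM, on 1 to 5. Epyc therefore passed the filter only through injured libraries. Kera, which lies between Lum and Epyc, held at most 0.398 TPM in intact discs and did not pass the filter.

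**Figure D1:**
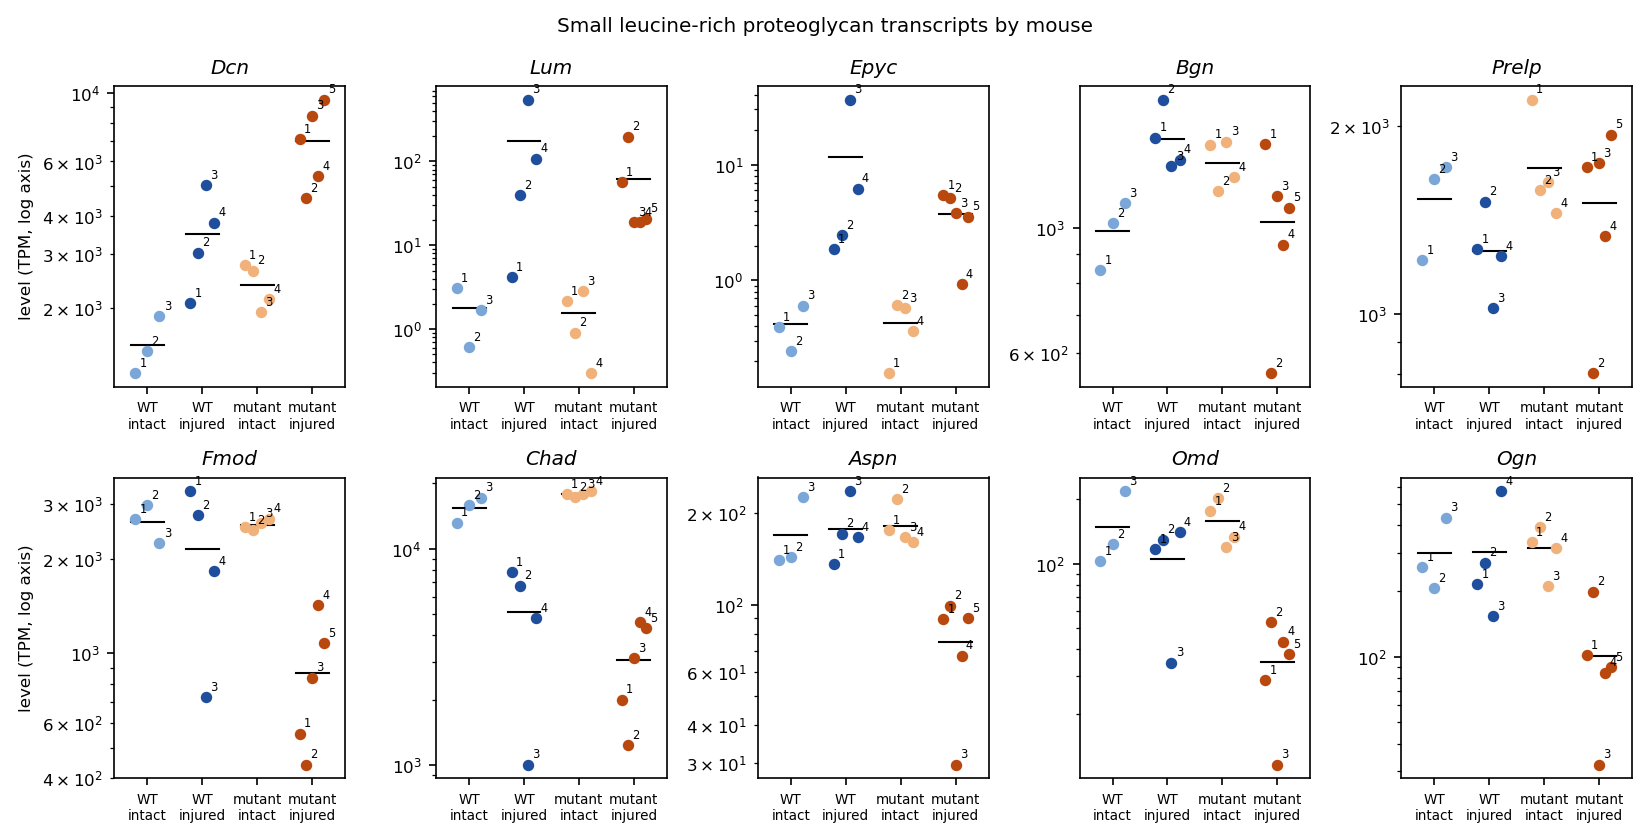
Level of each of the 10 genes in every mouse (TPM on a log axis, different for each gene). Points are mice with their numbers, and black lines are group means, 3 intact and 4 injured wild-type (WT) and 4 intact and 5 injured mutant mice. Lum lay at 3.11 TPM or below in every intact library and at 4.17 TPM or above in every injured one.

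How injury changed the family was asked in each genotype, as the difference of mean log2(TPM + 1) between injured and intact discs, tested with limma and adjusted over the 24188 genes at a threshold of 0.05. On that scale the change of a gene near 0 TPM, such as Epyc, comes out too small. Epyc is left out of the counts of injury calls, because it entered the tested genes only through injured libraries. In mutants 2 of the other 9 members rose (Dcn and Lum), 5 fell (Chad, Omd, Ogn, Fmod and Aspn), and Bgn and Prelp did not pass. Of all tested genes 30.8% were called in that comparison, 13.1% higher and 17.7% lower. Dcn and Lum lie in the chromosome 10 block, and of the 5 lower members 3 lie in the chromosome 13 block. The TPM values of injured and intact mutants did not overlap for 7 of the 9 members, against 27.2% of all genes. These were the same 7 that were called. The median change was -1.36 over the 9 members and -0.08 over all genes.

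In the wild type 0 of the 9 members passed, against 0.116% of all genes, and 0 passed with voom on implied reads. At an unadjusted p under 0.05, 17.2% of all genes passed, and 4 members did: Lum, Dcn and Bgn with higher values in injured discs and Chad with lower ones. The same 4 did not overlap between injured and intact wild-type discs, against 15.6% of all genes. Medians were -0.09 over the 9 members and 0.01 over all genes. Injured mouse 1 bore on these counts: without it, 1.87% of all genes were called, and Lum passed, at 5.69 ± 0.94 on the log2 scale (SE, limma adjusted p = 0.018). In bulk tissue, fewer cells of a type and less RNA per cell cannot be told apart.

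Dcn, the decorin gene, rose in injured mutant discs to one of the highest levels of any gene. In intact mutants it held 2763, 2651, 1951 and 2147 TPM (mice 1 to 4), and in injured mutants 7091, 4562, 8444, 5379.95 and 9522 TPM (mice 1 to 5). The lowest injured mutant thus lay above the highest intact one. The change was 1.52 ± 0.29 on the log2 scale (SE, limma adjusted p = 0.0023), a 2.94-fold ratio of mean TPM. Wild-type discs went from 1233, 1453 and 1886 TPM when intact to 2076, 3034, 5039.5 and 3798 TPM when injured. Those groups did not overlap either, with mouse 1 just above the intact range, and the difference of 1.14 ± 0.33 did not pass (SE, limma adjusted p = 0.15). In injured mutants Dcn was the ninth highest of all tested genes by mean TPM.

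Lum, which encodes the collagen-binding proteoglycan lumican, rose in mutants from near absence. Intact mutants held 2.14, 0.909, 2.85 and 0.299 TPM, and injured mutants 56.1, 197.5, 19.0, 18.8 and 20.8 TPM. Mice 1 and 2, the libraries named A8, were above the other 3 injured mutants. The change was 4.08 ± 1.03 (SE, limma adjusted p = 0.0091), and with limma's voom on implied reads it did not pass, at 5.01 ± 2.61 (SE, adjusted p = 0.15). In the wild type Lum held 3.11, 0.606 and 1.68 TPM in intact discs and 4.17, 40.0, 544.7 and 107.7 TPM in injured discs. Injured mouse 1 was near the intact values and mouse 3 held the highest level of all 16 libraries, and the difference of 4.51 ± 1.17 did not pass (SE, limma adjusted p = 0.13).

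Epyc, which encodes epiphycan of growth-plate cartilage, behaved like Lum at a lower level. Its 7 intact values lay between 0.158 and 0.614 TPM. Injured mutants held 5.46, 5.17, 3.82, 0.929 and 3.55 TPM, and injured wild-type mice 1.87, 2.46, 36.5 and 6.22 TPM. Every injured value was above every intact one, with mutant mouse 4 nearest to them and wild-type mouse 3 far above all others. The difference was 1.64 ± 0.59 for mutants (SE, limma adjusted p = 0.046) and 2.35 ± 0.67 for wild-type mice (SE, limma adjusted p = 0.14). Because the gene was tested only through its injured values, the mutant p is not read as a call. It was under 0.05 in 6 of 20 fits, the reported one and its alternatives, with adjusted p from 0.00898 to 0.408. Leaving out any of the 4 intact mutants, or injured mutant mouse 1, 2, 3 or 5, brought it above 0.05. Kera, between Lum and Epyc, reached 6.64 TPM in an injured wild-type library and at most 0.974 TPM in injured mutants.

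Chad, whose product chondroadherin anchors cartilage cells to collagen, had the largest fall of the members in mutants. Injured mutants held 2013, 1238, 3137, 4596 and 4292 TPM, against 17291 TPM or more in every intact mutant. The change was -2.71 ± 0.55 (SE, limma adjusted p = 0.0031), and mean TPM was 5.85-fold lower. Injured wild-type discs held 7784, 6743, 1008 and 4768 TPM, all below the lowest intact value of 13184 TPM. Mouse 3 was lowest by far, and the difference of -1.94 ± 0.63 did not pass (SE, limma adjusted p = 0.17). Fibromodulin, encoded by Fmod, binds collagen fibrils and regulates their width and spacing. Fmod went from 2534, 2473, 2608 and 2694 TPM in intact mutants to 554, 441, 836, 1427 and 1078 TPM in injured ones. These values did not overlap, and Fmod fell by 1.70 ± 0.40 on the log2 scale (SE, limma adjusted p = 0.0065). In injured wild-type mice it held 3298, 2763, 725 and 1827 TPM, against 2685, 2974 and 2256 TPM in intact ones. Mouse 1 was above every intact value and mouse 3 below every one, so the groups overlapped, and the difference of -0.49 ± 0.45 did not pass (SE, limma adjusted p = 0.59).

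The 3 members of the chromosome 13 block all fell in mutants. Aspn, a class I relative of decorin that binds collagen and TGF-beta, held 176, 223, 167 and 160.3 TPM in intact mutants and 89.6, 99.2, 29.6, 67.9 and 90.01 TPM in injured ones. The lowest value was that of mouse 3, and the change was -1.36 ± 0.29 (SE, limma adjusted p = 0.0041). Omd, which encodes a proteoglycan first known from bone, held 176, 203, 119.8 and 134 TPM in intact mutants and 28.8, 53.5, 11.6, 43.4 and 37.9 TPM in injured ones. All 5 injured values lay under the intact ones, and the change was -2.27 ± 0.44 (SE, limma adjusted p = 0.0024). Ogn, which encodes osteoglycin, also called mimecan, held 335, 392, 211 and 315 TPM in intact mutants and 102, 199, 32.1, 84.6 and 89.6 TPM in injured ones. Mouse 2 came closest to the intact range, and the change was -1.80 ± 0.45 (SE, limma adjusted p = 0.0082).

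In the wild type the same 3 genes overlapped between injured and intact discs. Aspn held 140.5, 143 and 226 TPM in intact and 136, 171, 236 and 167 TPM in injured discs, a difference of 0.07 ± 0.33 (SE, limma adjusted p = 0.93). Ogn held 257, 205 and 434 TPM in intact and 214, 269.98, 154 and 573 TPM in injured discs, a difference of -0.09 ± 0.51 (SE, limma adjusted p = 0.95). Omd held 103, 123 and 218 TPM in intact and 117, 129.7, 34.7 and 140.1 TPM in injured discs, a difference of -0.59 ± 0.50 (SE, limma adjusted p = 0.55). For Omd, injured mouse 3 alone lay under the intact range.

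Bgn and Prelp had the smallest differences in mutants. Bgn, which encodes biglycan, held 1409, 1166, 1427 and 1233 TPM in intact mutants and 1413, 551, 1142, 935 and 1088 TPM in injured ones. Mouse 2 was lowest and mouse 1 within the intact range, and the difference of -0.41 ± 0.22 did not pass (SE, limma adjusted p = 0.17). In the wild type Bgn was higher in every injured disc, at 1449.9, 1695, 1292 and 1325 TPM, than in the intact ones, at 842, 1022 and 1107 TPM. That difference of 0.54 ± 0.25 did not pass after adjustment (SE, limma adjusted p = 0.28). Prelp encodes prolargin, which binds heparan sulfate as well as collagen. It held 1450.3 to 2206 TPM in intact and 803 to 1938 TPM in injured mutants, and 1221 to 1719 TPM in intact and 1020.2 to 1513 TPM in injured wild-type discs. The mutant and wild-type differences were -0.23 ± 0.24 and -0.28 ± 0.27, and neither passed (SE, limma adjusted p = 0.4985 and 0.62).

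The summed level of the family was lower in injured discs, and Chad carried that difference. Summed over the 10 members, intact discs held 19668 to 25037 TPM in the wild type and 25979 to 27512 TPM in mutants. Injured discs held 10091 to 16362 TPM in the wild type and 8149.8 to 18159 TPM in mutants, below all intact discs. Without Chad the order was the other way in most libraries. The other 9 members summed to 6484 to 7849 TPM in intact and 8567 to 9619 TPM in injured wild-type discs, without overlap. In mutants they summed to 8113 to 9601 TPM in intact discs and to 11060, 6912, 12262, 9291 and 13868 TPM in injured mice 1 to 5, of which mouse 2 lay below and mouse 4 within the intact range. Chad supplied 67.8% ± 0.809 of the sum in intact wild-type (SD, n = 3) and 67.5% ± 1.99 in intact mutant discs (SD, n = 4). Its share was 33.2% ± 16.4 in injured wild-type (SD, n = 4) and 21.5% ± 7.37 in injured mutant discs (SD, n = 5). Dcn supplied 6.66% ± 0.757 and 8.96% ± 1.37 in intact discs of the wild type and mutants, and 27.1% ± 16.4 and 51.2% ± 7.11 in injured ones. Dcn exceeded Chad in all 5 injured mutants and, among the injured wild-type mice, in mouse 3, where the Dcn share was 49.9%. In injured wild-type mice 1, 2 and 4 Chad stayed above Dcn. The ratio of Dcn to Fmod, which both bind collagen fibrils, was 0.459 to 1.09 in intact discs, 3.77 to 12.8 in injured mutants and 0.63 to 6.95 in injured wild-type discs. Sums and shares were not tested.

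**Figure D2:**
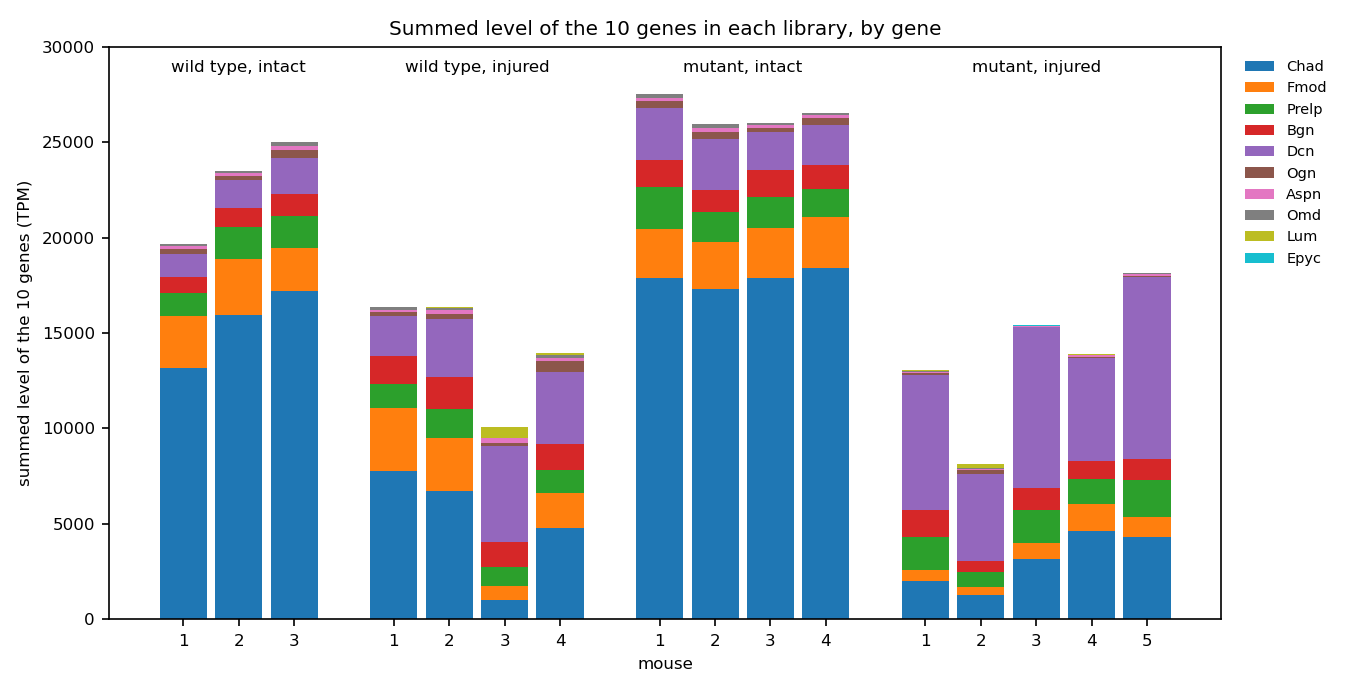
Summed level of the 10 genes in each library (TPM, bars from 0), divided by gene, with mice numbered within the 4 groups. All 7 intact bars stand at 19668 TPM or above and are mostly Chad, while all 9 injured bars stand at 18159 TPM or below, and Dcn is the largest piece in the 5 injured mutants and in injured wild-type mouse 3.

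Whether the genotypes differed was asked in intact and in injured discs. The injured wild-type libraries enter both the wild-type injury comparison and the genotype comparison in injured discs, and the intact libraries are likewise shared. In intact discs 0 of the 10 members passed, against 0.0165% of all genes, 0 passed with voom, and 0 had an unadjusted p under 0.05, against 3.78% of all genes. Dcn, Bgn and Chad did not overlap, with all 4 mutants above all 3 wild-type mice, against 2.77% of all genes with that order. Dcn, Bgn and Chad were lowest in wild-type mouse 1, which held the most muscle and erythroid RNA of the intact mice. Summed muscle markers held 211 to 855 TPM in intact wild-type and 137 to 177 TPM in intact mutant discs, without overlap. Erythroid sums, at 245 to 701 and 48.2 to 249 TPM, overlapped. The part of such RNA in the members' order was not tested. The differences of Dcn, Bgn and Chad were 0.65 ± 0.33, 0.41 ± 0.25 and 0.22 ± 0.63 on the log2 scale (SE, each with a limma adjusted p of 1). These SEs pool the spread of all 4 groups, so injured mice widen them for a gene such as Chad. The SD of its log2(TPM + 1) was 0.197 and 0.0371 in intact wild-type and mutant mice, against 1.35 and 0.794 in injured ones. With only the groups compared, 0 members passed as well.

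In injured discs Aspn was lower in mutants and was the only member to pass, against 0.918% of all genes called and 0.728% called lower. All 5 injured mutants (29.6 to 99.2 TPM) lay below all 4 injured wild-type mice (136 to 236 TPM), an order found in 3.86% of all genes, and the difference was -1.31 ± 0.29 (SE, limma adjusted p = 0.049). That call stood at the threshold: it was made in 7 of 21 fits, the reported one included, with adjusted p from 0.0261 to 0.231 and a difference from -1.60 to -0.88. Ogn, Omd and Fmod differed by -1.61 ± 0.45, -1.54 ± 0.44 and -1.23 ± 0.40, and Dcn by 1.03 ± 0.29, and these did not pass (SE, limma adjusted p = 0.080, 0.0896, 0.12 and 0.088). Bgn differed by -0.55 ± 0.22, Epyc by -0.70 ± 0.59, Lum by -0.59 ± 1.03, Chad by -0.54 ± 0.55 and Prelp by 0.21 ± 0.24 (SE, limma adjusted p of 0.18 or above). These calls turned on single mice. Without injured wild-type mouse 3, 9.31% of all genes were called, and among members Aspn, Fmod, Ogn and Omd were called lower and Dcn higher, with limma adjusted p from 0.0112 (Omd, -2.0 ± 0.38 SE) to 0.036 (Aspn, -1.17 ± 0.31 SE). Without injured mutant mouse 2, 2.79% of all genes were called, and Aspn and Ogn were called lower and Dcn higher. Leaving out injured wild-type mouse 1, 2 or 4, or injured mutant mouse 1, 3 or 5, ended the Aspn call. Of all genes called in this comparison 20.7% were higher in mutants, against 47.5% with median-of-ratios scaling.

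Whether injury acted differently in the genotypes was tested as the difference of the injury changes. Under limma 0 of the 10 members passed and 0 of all 24188 genes, and with voom the counts were 0 and 0. Of all genes 8.18% had an unadjusted p under 0.05. Among members the unadjusted p was under 0.05 for Aspn at -1.43 ± 0.44, Bgn at -0.95 ± 0.33, Ogn at -1.72 ± 0.67 and Omd at -1.68 ± 0.67 (SE, limma adjusted p of 0.488 to 0.548). All 4 were negative, so the change in mutants was the lower one. Over 27 fits, the reported one and its alternatives, the injury changes differed by -1.85 to -0.79 for Fmod and by -0.39 to 0.38 for Prelp. Neither gene passed in any of these fits. For Lum, Epyc, Dcn and Chad the injury changes differed by -0.43 ± 1.56, -0.71 ± 0.89, 0.38 ± 0.44 and -0.76 ± 0.83 (SE, limma adjusted p of 0.83 or above), errors too wide to show whether the genotypes respond alike.

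**Figure D3:**
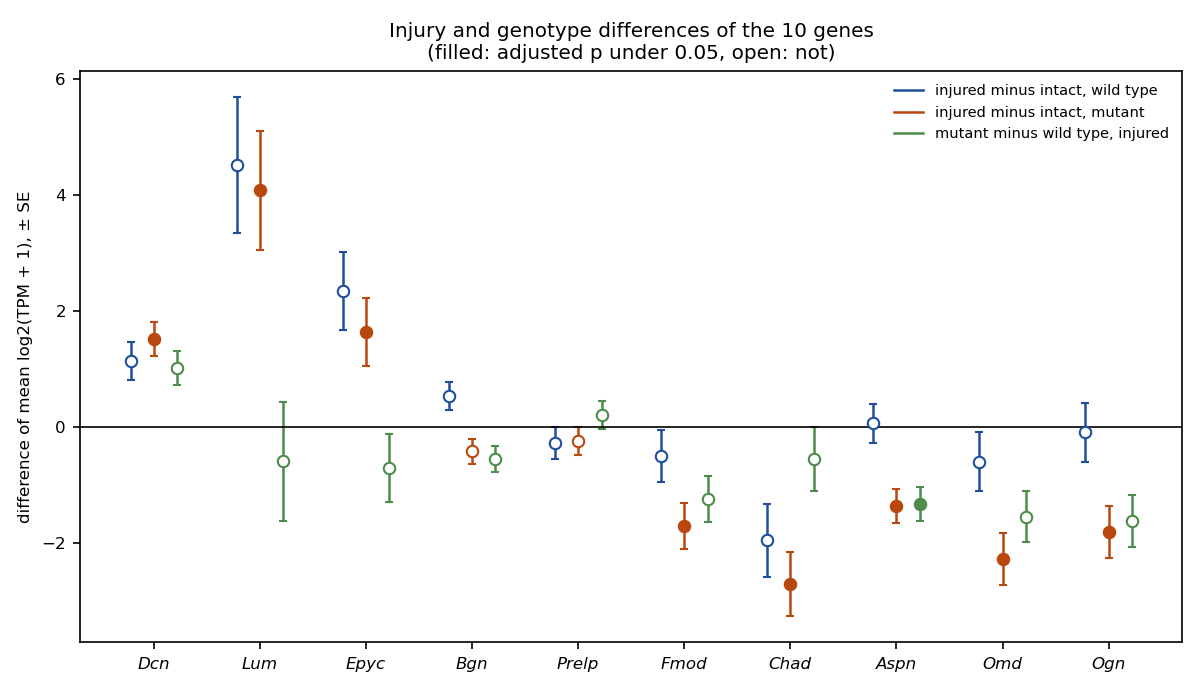
Differences of mean log2(TPM + 1) with SE for the 10 genes: injured minus intact in the wild type (blue) and in mutants (orange), and mutant minus wild type in injured discs (green). Filled points passed an adjusted p of 0.05 and open points did not, and only Aspn is filled in green, at -1.31. Epyc was tested only through its injured libraries.

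The naming of the mutant libraries was examined in fits that held the mutants of 1 naming and all wild-type libraries. The changes come from the mutants named, while the SEs and p-values also rest on the spread of the wild-type mice. Among the M libraries (3 injured, 2 intact) Dcn passed, at 1.89 ± 0.39 (SE, limma adjusted p = 0.037), and 0 members were called lower, with 3.0% of all genes called. Among the A8 libraries (2 injured, 2 intact) 0 were called higher, and Chad, Fmod, Omd and Aspn were called lower, at -3.48 ± 0.87, -2.34 ± 0.59, -2.24 ± 0.62 and -1.06 ± 0.28 (SE, limma adjusted p of 0.0315 to 0.0413), with 14.8% of all genes called. The sign of each of the 7 called members was the same in both kinds of library. In M libraries Lum changed by 3.20 ± 1.43, Chad by -2.20 ± 0.75 and Fmod by -1.28 ± 0.53 (SE, limma adjusted p of 0.119 to 0.201), each nearer to 0 than in A8 libraries.

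Other genes of the family were followed as well, 9 in the table of which 6 were tested. In injured mutants Ecm2, the fourth gene of the chromosome 13 block, fell by 2.48 ± 0.36 on the log2 scale (SE, limma adjusted p = 0.000593). Its level was 482 ± 189 TPM over the 4 intact and 89.4 ± 47.7 TPM over the 5 injured mice (mean ± SD). All 4 genes of that block were thus lower in injured than in intact mutants. Podn, the podocan gene, fell by 2.17 ± 0.28 (SE, limma adjusted p = 0.000366), and Chadl, which encodes a chondroadherin-like protein, fell by 1.43 ± 0.36 (SE, limma adjusted p = 0.0089). Chadl shares 1023 exon bases with L3mbtl2 on the opposite strand. Tsku, which encodes tsukushi, an inhibitor of BMP and Wnt signals, rose by 0.71 ± 0.25 (SE, limma adjusted p = 0.042). Optc and Podnl1 did not pass, at -0.10 ± 0.26 and -0.10 ± 0.34 (SE, limma adjusted p = 0.79 and 0.85), and Kera, Nyx and Nepn were not tested. With injury in the wild type 0 of the 6 passed under limma and 2 had an unadjusted p under 0.05, Ecm2 at -1.06 ± 0.41 and Tsku at 0.84 ± 0.28 (SE, limma adjusted p = 0.22 and 0.18). Podn, the gene with the smallest adjusted p of the 6 in mutants, differed by -0.11 ± 0.32 in wild-type discs (SE, limma adjusted p = 0.88).

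Podn also differed between genotypes in injured discs, at -1.49 ± 0.28 (SE, limma adjusted p = 0.030). Injured mutants held 4.57 to 16.5 TPM and injured wild-type discs 19.6 to 30.8 TPM, without overlap. Its injury changes differed by -2.06 ± 0.42 between the genotypes, which did not pass (SE, limma adjusted p = 0.46).

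Genes that build, bind or cut these proteoglycans were counted from fixed lists in injured against intact mutants, where, as given above, 13.1% of all genes were called higher and 17.7% lower. Of 7 enzymes of the sugar linkage to the core protein, B4galt7 rose by 0.64 ± 0.14, and the xylose phosphatase gene Pxylp1 and the xylose kinase gene Fam20b fell by 0.68 ± 0.12 and 0.43 ± 0.14 (SE, limma adjusted p = 0.0044, 0.0016 and 0.030). Of 4 dermatan sulfate enzymes 0 passed under limma, and 1 had an unadjusted p under 0.05. Of 5 tested keratan sulfate enzymes, B3gnt7 and Chst2 rose by 1.72 ± 0.35 and 0.85 ± 0.28, and the sulfotransferase gene Chst5 fell by 2.27 ± 0.34 (SE, limma adjusted p = 0.0032, 0.034 and 0.000696). Chst5 held 174 ± 20.4 TPM over the intact and 38.6 ± 18.1 TPM over the injured mutants (mean ± SD of 4 and 5 mice), while B3gnt7 reached 5.25 TPM at most. B3gnt7 and Chst2 entered the tested genes only through injured libraries, so their p-values are not read as calls.

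Among 13 genes of fibrillar, fibril-associated and type VI collagens 4 rose and 0 fell, a share close to the 30.8% called over all genes, with a median change of 0.37. Col12a1 rose by 2.60 ± 0.59, Col3a1 by 2.15 ± 0.68 and Col6a3 by 1.79 ± 0.31 (SE, limma adjusted p = 0.0052, 0.027 and 0.0014). Collagens XII and VI are ligands of decorin, and collagen III forms fibrils in repairing tissue. Of 12 tested protease genes whose products cut members of the family, 4 rose and 1, Htra1, fell. Of the 4, Mmp12 and Adamts4 entered the tested genes only through injured libraries, so their p-values are not read as calls. Mmp3, Mmp12 and Mmp13, matrix metalloproteases, rose by 5.99 ± 1.13, 4.64 ± 0.92 and 4.55 ± 1.22 (SE, limma adjusted p = 0.0020, 0.0027 and 0.012). Of 11 tested receptors and growth factors that the family binds, Tlr2, a receptor of soluble biglycan, rose by 1.76 ± 0.35 and Tgfb3 fell by 1.09 ± 0.17 (SE, limma adjusted p = 0.0027 and 0.000758). Under limma, 0 genes of these 6 lists passed with injury in the wild type. At an unadjusted p under 0.05, 7 of the 13 collagen genes were higher in injured wild-type discs, against 10.3% of all genes, and their list had a median of 0.87, against 0.01 over all genes.

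Markers of other cells moved with the same contrast, and their part in the members' changes was not tested. In mutants 4 of 5 macrophage genes and 2 of 4 tested fibroblast genes rose, against 13.1% of all genes. Of 3 tested neutrophil genes 2, S100a8 and S100a9, rose as well. Both entered the tested genes only through injured libraries, so their p-values are not read as calls. Summed fibroblast markers went from 34.1 to 50.1 TPM in intact to 93.7 to 172 TPM in injured mutants, and neutrophil markers from 1.44 to 2.04 TPM to 5.78 to 623 TPM. In intact mutants Ly6g and Mpo of the neutrophil list were at 0. Of 5 tested notochordal genes 3 fell, and their summed level went from 3329 to 5503 TPM to 553 to 3345 TPM. Of 5 annulus and tendon genes Tnmd, Mkx and Scx fell by 2.03 ± 0.50, 1.27 ± 0.27 and 0.57 ± 0.20 and Thbs4 rose by 1.95 ± 0.53 (SE, limma adjusted p of 0.0036 to 0.044). Of 10 cartilage and disc genes Cnmd and Comp fell by 3.22 ± 0.70 and 2.54 ± 0.47 and Hapln1 rose by 1.19 ± 0.25 (SE, limma adjusted p of 0.00185 to 0.0044), and the summed level was 13195 to 16002 TPM in intact and 5028 to 13951 TPM in injured mutants. None of the 3 tested osteoblast, 7 muscle, 5 endothelial, 4 adipocyte or 4 erythroid genes passed. Of 2 tested keratinocyte genes 1 fell. Krt1 of that list held 0.846 to 1.27 TPM in intact and at most 0.730 TPM in injured mutants. It entered the tested genes only through intact libraries, so its p-value is not read as a call. In injured wild-type mouse 3, which held the most Lum and Epyc and the least Chad, fibroblast markers summed to 336 TPM and annulus and tendon markers to 6726 TPM, the highest of all 16 libraries for both. Most of the latter sum was Col1a1 at 6014 TPM, and Thbs4 held 613 TPM. The tendon genes Tnmd, Scx and Mkx together held 98.3 TPM in that mouse, below every intact library (181 to 234 TPM). Endothelial, erythroid and adipocyte sums were also the highest of all 16 libraries there, at 179, 1440 and 62.8 TPM. Cartilage and disc markers (6460 TPM) and notochordal markers (1457 TPM) were the lowest of the wild-type libraries. Macrophage and neutrophil sums were highest in injured mutant mouse 2 instead, at 7591 and 623 TPM.

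Within groups the members varied together in a few sets. Deviations of log2(TPM + 1) from the group means were correlated over the 16 libraries as a description, without a test. Libraries of a group share their deviations' zero, and injured wild-type mouse 3 weighs heavily. Chad and Fmod had a Pearson r of 0.961 (Spearman rho 0.824), Bgn and Prelp 0.887 (0.841), Ogn and Omd 0.834 (0.771), and Lum and Epyc 0.80 (0.641). Fmod ran opposite to Epyc and Lum, at -0.927 and -0.872, and Chad opposite to Epyc and Lum, at -0.903 and -0.867. In both injured groups the mouse with the least Chad held the least Fmod and the most Lum. Intact wild-type discs went otherwise, as mouse 3 held the most Chad (17188 TPM) and the least Fmod (2256 TPM).

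Over all other genes, the gene most like Chad was Clec3a, a cartilage lectin gene, at an r of 0.981 (rho 0.90). For Fmod it was Prkcz at 0.968 (0.909), for Lum Sema7a at 0.95 (0.909), for Epyc Gcnt2 at 0.943 (0.818) and for Bgn Prnp at 0.954 (0.826). Dcn was most like Sulf1, a gene for an extracellular heparan sulfate sulfatase, at 0.921 (0.953). For Omd it was Pak3 at 0.923 (0.821), for Ogn Vav3 at 0.92 (0.762), for Prelp Bcl2 at 0.892 (0.903) and for Aspn Gulp1 at 0.864 (0.788).

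**Figure D4:**
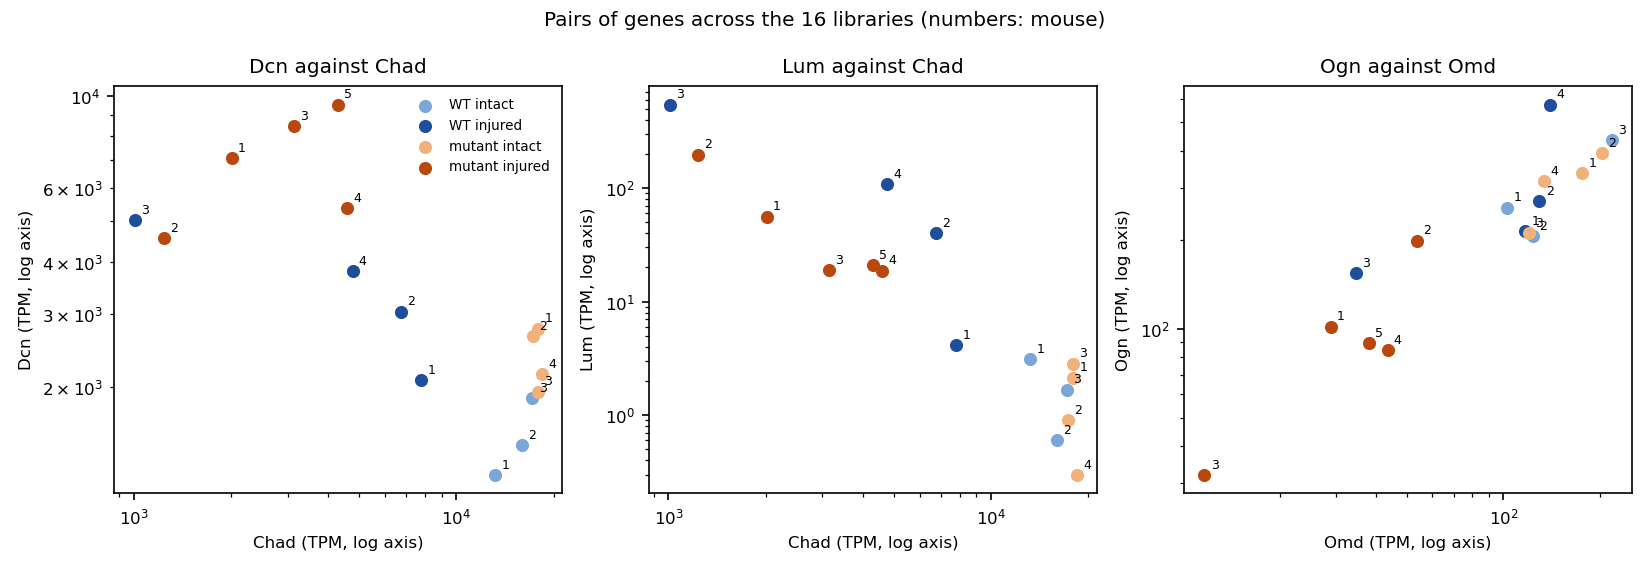
Levels of pairs of genes in the 16 libraries (TPM, both axes log, points are mice with their numbers, colours are the 4 groups). Along the Chad axis the intact libraries sit at 13184 TPM or above, injured wild-type mouse 3 lies lowest at 1008 TPM with the highest Lum at 544.7 TPM. Ogn and Omd are high or low in much the same libraries.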

How the data were processed

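Levels came from a table of TPM that the authors deposited, in which each of the 16 mice has a column. RNA extraction used Trizol, per the labels' protocols, and ribosomal RNA was removed with QIAGEN FastSelect before NEBNext Ultra II library preparation, while the molecule label reads polyA RNA. The submitters' processing notes name bcl2fastq 2.20 and GRCm38. The aligner, the counter, its use of strand and the annotation are not given in the sources used here.

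The TPM values were tested with limma 3.58.1 in R 4.3.3 on log2(TPM + 1), for the 24188 genes that reached 1 TPM in 3 or more libraries. The 4 groups and all 16 libraries were fitted together, with a mean-variance trend, and p-values were adjusted by Benjamini-Hochberg over all tested genes of a comparison, at 0.05. SEs are moderated. The p-values measure the spread between mice, pooled over the 4 groups. The mutant injury test was run on simulated data with 200 changed genes and the same spread in every group. Of changes of 1 and 2 on the log2 scale it called 55% and 86%, with 10 false calls. Groups of unequal spread were not simulated. Reads implied by TPM came from union exon lengths of GENCODE release M21; 94.9% to 95.8% of low values per library (under 20 reads) lay within 0.05 of a whole number.

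The members and the lists were chosen with earlier results of these data known. The text gives all 10 members, other family genes, and up to 3 called genes per list with the largest mutant injury change; the summed macrophage level, Acan, Col2a1, Adam8 and the list counts of markers were given besides. Alternatives were a pseudocount of 0.1, no filter, a mean of at least 5 TPM, median-of-ratios scaling, quantile normalization, only the groups compared, a replicate block, mutants of 1 naming, sample weights, leaving out each mouse, and, added after seeing the data, limma's voom on implied reads.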

Additional observations from a re-analysis of the deposited data

Results flagged for a closer look

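In 1 of the 30 groups of 4 or 5 mice examined, 1 mouse lay far from the rest: Omd in injured wild-type mouse 3 held 34.7 TPM, against 117, 129.7 and 140.1 TPM in the other injured wild-type mice. The gap to the nearest mouse was 0.87 of the whole range of the group. Chance alone marks about 1 group in 20.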

How the results depend on the processing

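Across the alternatives, 174 of the members' values in the mutant injury comparison kept direction and side of the threshold, 24 lost the call and 1 changed sign. Of the calls lost, 14 were those of Epyc, and apart from Epyc and the fits with mutants of 1 naming, which hold fewer mice, only Lum with voom lost its call. Members called in mutants, Epyc included, were 1 higher and 0 lower with only the mutants named M, 0 higher with only those named A8 and 1 higher with voom. Leaving out 1 mouse gave 0 to 2 members higher in the wild type. The 2 were Lum and Epyc, and the Epyc p is not read as a call. Between genotypes in injured discs it gave 0 to 1 higher and 0 to 4 lower. In that genotype comparison 0 members were called lower with a pseudocount of 0.1, no filter, median-of-ratios scaling, quantile normalization, only the groups compared, a replicate block or mutants of either naming. With sample weights 4 were lower and 1 higher, and with voom 1 was higher; the cause was not tested.

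Over all genes, the wild-type injury comparison called 64 genes with a pseudocount of 0.1, 11 with no filter, 17 with median-of-ratios scaling, 4 with only the groups compared, 77 with sample weights, 4 with voom and 2 to 452 leaving out 1 mouse, against 28; 92.9% were higher, against 77.1% with quantile normalization. Mutant injury called 725 genes with M and 3583 with A8 libraries, against 7438. Genotype in intact discs called 2 genes with M libraries, 8 with A8 libraries, 8 with sample weights and 1 to 7 leaving out 1 mouse, against 4. Genotype in injured discs called 86 genes with no filter, 93 with quantile normalization (34.4% higher), 5 with only the groups compared, 2 with A8 libraries, 1070 with sample weights, 556 with voom and 7 to 2253 leaving out 1 mouse, against 222. The interaction called 4 genes with sample weights and 0 to 15 leaving out 1 mouse, against 0.

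Signs changed only for differences that did not pass. With injury, leaving out 1 wild-type mouse moved Ogn from -0.45 to 0.22 and Aspn from -0.07 to 0.29, sample weights gave Ogn 0.14, and M libraries gave Prelp 0.10 in mutants. Between genotypes in intact discs, M libraries gave Fmod 0.02, Ogn -0.14, Omd -0.15 and Aspn -0.02, and Epyc was -0.04 with A8 libraries and -0.01 with a pseudocount of 0.1. Leaving out 1 mouse there gave Fmod -0.13 to 0.07, Lum -0.50 to 0.17, Ogn -0.13 to 0.41, Omd -0.08 to 0.46, Aspn -0.00 to 0.34 and Epyc -0.08 to 0.10. In injured discs A8 libraries gave Lum 0.84 and Prelp -0.09, and leaving out 1 mouse gave Lum -1.76 to 0.48 and Epyc -1.15 to 0.09. For the interaction A8 libraries gave Dcn -0.07, Lum 0.93 and Prelp -0.39, and leaving out 1 mouse gave Lum -1.61 to 0.63, Prelp -0.06 to 0.25 and Epyc -1.15 to 0.08.

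The mouse numbers do not pair the libraries: over 21 same-number pairs the correlation of deviations from group means was -0.217 to 0.151, with 1 above 0.1. With the replicate number as a block, 5 genes were called for wild-type injury, 2 between intact and 11 between injured genotypes, Ogn differed by -0.02 between intact genotypes, the Prelp interaction was -0.09, and Epyc (mutant injury) and Aspn (injured genotypes) were no longer under 0.05. Depth limits the intact values of Lum and Epyc, which rest on few implied reads.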
